A study of Mus musculus with 6 samples.

Results

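The genes described here are 10 transcription factors of the developing heart and its outflow tract: Gata4, Gata5, Gata6, Hand1, Hand2, Tbx5, Tbx18, Tbx20, Nkx2-5 and Isl1. They were chosen by name. Their loci were examined in cultured smooth muscle cells of mouse vessels (VSMCs) by ATAC-seq, which finds accessible DNA through cutting by the Tn5 transposase. The authors called peaks in each library separately. A window was drawn for each gene, its RefSeq body plus 50 kb on each side on mm10. Peaks of all libraries that shared at least 1 base were merged into regions, and a library counted as present where it had a peak in the region. The 10 windows held 59 of 85174 merged regions, and the 10 genes stood among 21887 protein-coding genes.

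There were 3 libraries from cells transfected with siRNA against Arid3a and 3 from cells given a negative control. Arid3a encodes a DNA-binding protein with an AT-rich interaction domain. The knockdown libraries, replicates 1 to 3, each received another siRNA (si-Arid3a#1, si-Arid3a#2 and si-Arid3a#3), so their spread also holds differences between siRNAs. Each assay used 50000 cells, and cells were kept for 24 h after the siRNA was added. The cells are purchased primary cells, and the labels give neither genotype nor age. They also mention angiotensin II without saying which libraries received it. They name no separate cultures behind the replicates, so the p-values cover the variation among these 6 libraries, possibly technical only. ATAC-seq does not measure RNA, so the level of Arid3a could not be used to check the labels.

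The knockdown libraries held 50543, 51279 and 41629 peaks and the control libraries 51330, 33248 and 52091. Tags, the read ends piled up at a peak's summit, were estimated from the fold and p-value that the authors gave each peak. The median peak held 8 estimated tags in knockdown replicate 3 and control replicate 2, and 11 in each of the other libraries. These 2 libraries were thus the shallowest, and a weak region can be missing from them at this depth. A peak within 1 kb of the start was found in 6 of 6 libraries for 5 of 8 smooth muscle markers, among them Acta2 and Tagln, though Myh11 had none in any library. It was found in 0 of 6 libraries for each of the 8 cardiomyocyte markers, from Myh6 to Nppa, and each of the 4 epithelial ones. Of the 6 fibroblast markers, Col1a1 and Col1a2 had one in 6 of 6 libraries, and none of the 6 endothelial or 6 leukocyte markers did. In the knockdown libraries 33.3% to 66.7% of the fibroblast starts and 16.7% to 50% of the leukocyte starts were open, against 50% of the fibroblast and 0.0% to 50% of the leukocyte starts in the control libraries. For endothelial starts it was 0.0% to 16.7% in the knockdown and 0.0% to 33.3% in the control libraries. Whether other cells in the culture contribute to the regions below was not tested, and a region open in few cells cannot be told apart from one weakly open in many.

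These factors act in combination at the control regions of heart genes. GATA proteins are zinc finger factors, HAND proteins are basic helix-loop-helix factors, TBX proteins share the T-box domain, and Nkx2-5 and Isl1 are homeodomain proteins. Gata6 is known from vascular smooth muscle as well as from the heart, and Tbx18 from the epicardium and from the mural cells of vessels. The others are known mainly from heart muscle, endocardium and the progenitors of the outflow tract. Binding sites of the GATA family contain the letters GATAA, and Arid3a binds AT-rich DNA.

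Gene starts for 6 of the 10 factors are listed in the RefSeq promoter table, and the 250 bases before 4 of these starts show the contrast on which the results turn. The start of Tbx18 was open in 5 of 6 libraries, and those of Hand2, Tbx20 and Isl1 in 0 of 6. Sequences are from RefSeq (GRCm38.p6, the assembly of mm10), written 5′ to 3′ on the strand of the gene. Tbx18 lies at chr9:87731261-87731510 (minus strand), Hand2 at chr8:57320733-57320982 (plus), Tbx20 at chr9:24774304-24774553 (minus) and Isl1 at chr13:116309689-116309938 (minus). Capitals in Tbx18 mark the 61 bases from the farthest to the nearest of its 5 peak summits, 126 to 66 bases before the start. Capitals in Hand2 and Isl1 mark, on either strand, the GATA letters GATAA and AT-rich letters searched for the ARID3 family, which were ATTAAA and, as a second form, ATCAAA. Tbx20 held none of them.
Tbx18: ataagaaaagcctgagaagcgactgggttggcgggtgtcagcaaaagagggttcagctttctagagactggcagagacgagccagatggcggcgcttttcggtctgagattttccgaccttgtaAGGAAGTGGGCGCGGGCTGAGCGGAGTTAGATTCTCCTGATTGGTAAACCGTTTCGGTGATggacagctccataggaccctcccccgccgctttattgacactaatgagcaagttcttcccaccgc
Hand2: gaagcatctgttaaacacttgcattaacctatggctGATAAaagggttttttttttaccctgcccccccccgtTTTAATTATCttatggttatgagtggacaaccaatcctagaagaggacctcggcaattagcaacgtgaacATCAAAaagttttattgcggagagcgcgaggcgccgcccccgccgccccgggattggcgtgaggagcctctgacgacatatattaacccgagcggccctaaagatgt
Tbx20: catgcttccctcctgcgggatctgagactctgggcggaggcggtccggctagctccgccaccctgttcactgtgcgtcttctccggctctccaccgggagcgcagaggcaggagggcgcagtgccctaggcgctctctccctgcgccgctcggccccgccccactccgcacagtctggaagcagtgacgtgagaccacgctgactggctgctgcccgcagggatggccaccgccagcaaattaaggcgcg
Isl1: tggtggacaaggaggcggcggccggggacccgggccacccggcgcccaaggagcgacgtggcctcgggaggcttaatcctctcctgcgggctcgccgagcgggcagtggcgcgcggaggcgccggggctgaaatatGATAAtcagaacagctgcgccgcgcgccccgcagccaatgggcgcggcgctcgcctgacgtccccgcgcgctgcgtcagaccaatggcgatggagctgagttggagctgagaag

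The factor genes fell into 3 kinds of window. Gata6 and Tbx18 were open at the gene itself. Gata4, Hand1 and Nkx2-5 had their regions of 6 of 6 libraries at neighbouring genes or noncoding transcripts. Gata5, Hand2, Tbx5, Tbx20 and Isl1 had no region shared by all libraries. Tbx18 had none either, its start being open in 5 of 6. Of the 59 regions, 10 (16.9%) were present in 6 of 6 libraries, against 24.4% of all merged regions. Another 28 (47.5%) were present in 1 library, against 33.5% of all regions. The 10 shared regions lay in 4 windows, 3 each for Gata6 and Nkx2-5 and 2 each for Gata4 and Hand1. Only 1 of the 10, at Gata6, overlapped the body of its factor, and 4 lay in or within 1 kb of another protein-coding gene. A region shared by 6 of 6 libraries overlapped the body of 1 of the 10 factors, against 45.6% of protein-coding genes.

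**Figure D1:**
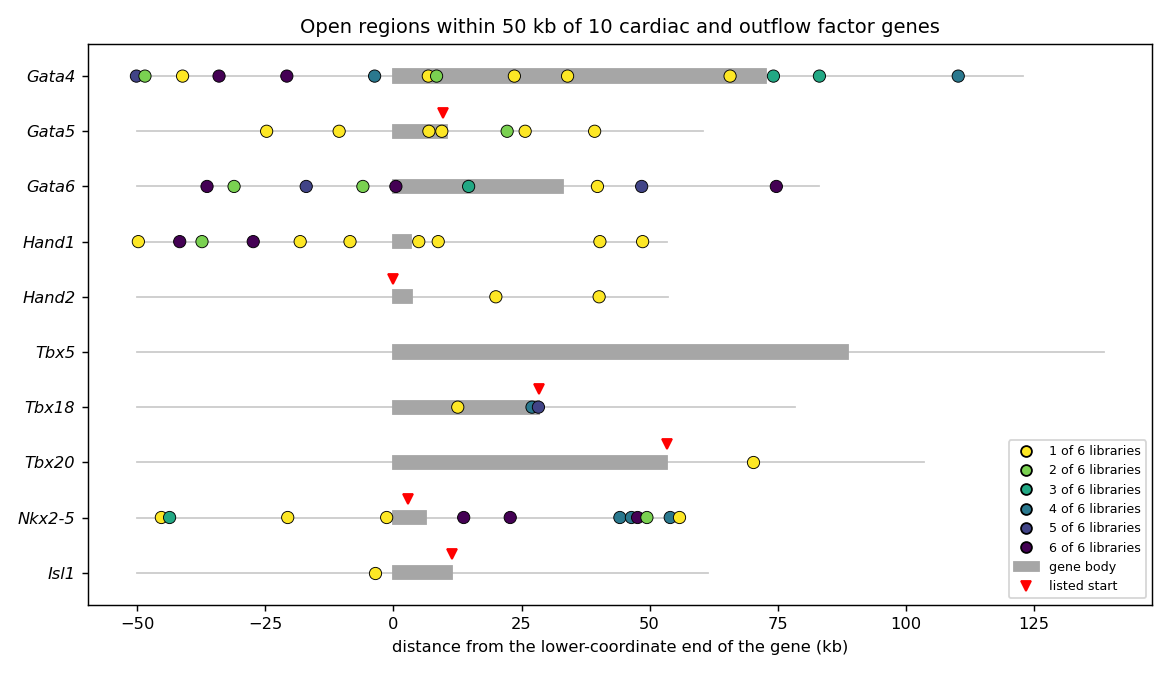
Position of each merged region (circle at its midpoint) relative to the lower-coordinate end of the gene, in kb, with 1 row per factor and darker circles for regions called in more of the 6 libraries. Grey bars are gene bodies, red triangles the 6 starts that RefSeq lists, and the window of Tbx5 holds no circle.

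Gata6 (chromosome 18, 11052510 to 11085636) was the only one of the 10 genes with a region of 6 of 6 libraries over its body. A region of 1447 bases at 11052263 to 11053709 covered its lower-coordinate end, overlapped the noncoding gene Gata6os and was present in 6 of 6 libraries. The authors' fold enrichment, a ratio of summit signal to that library's own local background, was 7.60, 9.62 and 5.23 in knockdown replicates 1 to 3 and 9.66, 6.58 and 8.63 in control replicates 1 to 3. The groups overlapped, and the lowest value was that of knockdown replicate 3. Estimated tags at the summit were 23, 32 and 11 in the knockdown libraries and 32, 19 and 33 in the control libraries. The local background of this region was high, with a median of 2.29 estimated tags over the libraries. The median peak of a library had 0.463 to 0.703. The highest summit lay 734 to 790 bases inside the gene in every library. Control replicates 1 and 3 had a separate peak over the gene end itself, with summits at -148 and -12 bases relative to it, where negative values lie outside the gene. In knockdown replicate 3 the peak began 633 bases inside the gene, so the end itself was covered by a peak in the other 5 libraries.

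Beyond the gene, Gata6 had 2 more regions in 6 of 6 libraries, both between genes. The region 36.2 kb below the gene, at 11015955 to 11016290, had a fold enrichment of 13.3, 13.3 and 8.70 in the knockdown libraries and 11.0, 11.5 and 9.35 in the control libraries. It exceeded 76.7% to 96.9% of all peaks of the same library, so it was among the stronger peaks in each. The region 41.3 kb above the gene, at 11126978 to 11127514, was weaker, at 6.53, 7.18 and 5.85 in the knockdown libraries and 8.91, 5.68 and 8.51 in the control libraries. A region 15.1 kb above, at 11100718 to 11101199, had a fold enrichment of 9.65 to 12.5 and was present in 5 of 6 libraries, and one 16.8 kb below in the same 5. Both were missing from knockdown replicate 3. One region inside the gene, at 11066849 to 11067522, was called in knockdown replicate 1 and in control replicates 1 and 3.

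Tbx18 (chromosome 9, 87702800 to 87731260, minus strand) was open at its start and at a site 1.07 kb into the gene, and no other region of its window was called in more than 1 library. The start region, at 87730675 to 87731522, had a fold enrichment of 7.96 and 8.87 in knockdown replicates 1 and 2 and of 7.96, 7.22 and 7.01 in the control libraries. No peak was called there in knockdown replicate 3. Estimated summit tags were 16 and 17 in those knockdown libraries and 14, 12 and 15 in the control libraries. The values lay close together, with the summits in the marked stretch of the printed sequence. The region inside the gene, at 87729508 to 87730186, was called in 4 libraries, knockdown replicates 1 and 3 and control replicates 1 and 3, at a fold enrichment of 5.30 to 5.58. Knockdown replicate 3 thus had a peak near the start of Tbx18, though not within 1 kb of it. The nearest region of 6 of 6 libraries lay 113 kb away.

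Gata4 (chromosome 14, 63198914 to 63271712) is a factor of early heart muscle and had 14 regions in its window. Both regions of 6 of 6 libraries were inside Fdft1, which encodes squalene synthase. The one 20.4 kb below Gata4, at 63177646 to 63178564, had the highest fold enrichment of the 10 windows in each library but control replicate 2, at 15.5, 15.5 and 11.9 in the knockdown libraries and 15.3, 10.2 and 16.4 in the control libraries. The other, 33.5 kb below at 63164332 to 63165410, had 11.8, 9.92 and 8.17 in the knockdown libraries and 9.87, 8.05 and 8.96 in the control libraries. Inside the gene body of Gata4 were 5 regions, 4 of them in 1 library and 1 in 2 libraries, with at most 6 estimated tags at the summit. A region 1.19 kb above its upper end, at 63272903 to 63273268, was just outside the 1 kb end window and was called in knockdown replicate 2 and control replicates 1 and 3, at 9.60, 7.65 and 5.98.

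Hand1 (chromosome 11, 57828713 to 57832147), a factor of the left ventricle and the extraembryonic tissues, had 10 regions, and the 2 present in 6 of 6 libraries both lay at other genes. The region 26.8 kb below, at 57800730 to 57801955, lay at Sap30l, a corepressor subunit gene, and overlapped the noncoding 2010001A14Rik. Its fold enrichment was 11.1, 8.38 and 9.11 in the knockdown libraries and 11.0, 8.73 and 9.26 in the control libraries. The region 41.4 kb below, at 57786723 to 57787267 in the glycosyltransferase gene Galnt10, had 5.91, 3.81 and 5.90 in the knockdown libraries and 5.47, 5.32 and 4.59 in the control libraries. In both regions the groups overlapped. The nearest region to Hand1 itself lay 1.42 kb from its upper end, in the noncoding Gm32915, and was called in control replicate 1 alone with 3 estimated tags.

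Nkx2-5 (chromosome 17, 26838664 to 26844988), the homeobox gene of early cardiac progenitors, had 12 regions in its window and none over the gene. Its 3 regions of 6 of 6 libraries lay in noncoding genes above it. The nearest, 7.07 kb above the gene at 26852056 to 26852694 in LOC115488773, had a fold enrichment of 11.0, 12.4 and 9.60 in the knockdown libraries and 11.6, 6.01 and 7.72 in the control libraries. The region 16 kb above, at 26860961 to 26861954 in Gm17382, had 10.6, 9.55 and 10.2 in the knockdown libraries and 11.3, 7.49 and 8.48 in the control libraries. In both, the knockdown and control values overlapped, with the lowest in control replicate 2. The region 41.1 kb above, at 26886080 to 26886559, had 8.13, 6.14 and 5.62 in the knockdown libraries and 5.37, 4.45 and 5.80 in the control libraries. It stood on a high local background, with a median of 2.46 estimated tags over the libraries, where the median peak of a library had 0.463 to 0.703.

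**Figure D2:**
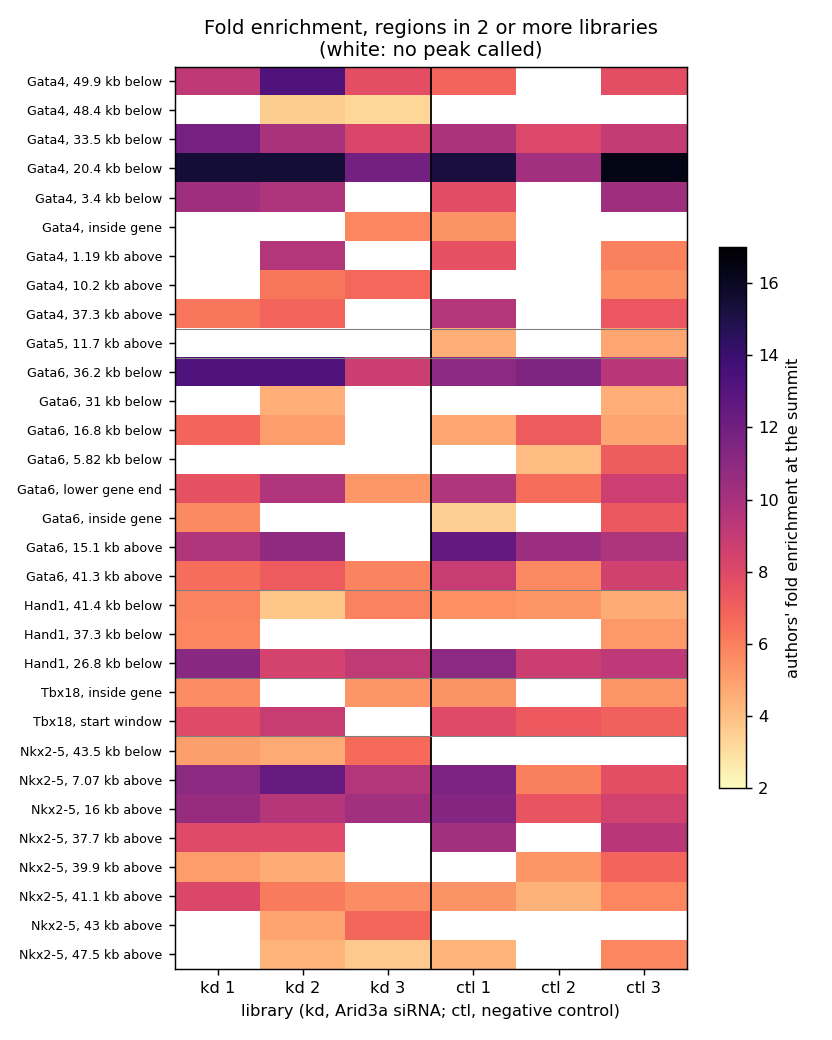
The authors' fold enrichment at the summit (colour) for the regions of the 10 windows called in 2 or more libraries, with knockdown libraries (kd) left of control libraries (ctl) and white where no peak was called. Distances are to the gene body in kb, on the side of lower (below) or higher (above) coordinates, and white cells are most frequent in kd 3 and ctl 2.

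The other windows held few or no open regions. Tbx5 (chromosome 5, 119796514 to 119885220), a T-box factor of the atria, the left ventricle and the forelimb, had 0 regions in a window of 189 kb. Of all protein-coding gene windows 15.0% held 0 regions, and of the 2801 at least as long as that of Tbx5, 154 (5.50%) did. The nearest region of any kind lay 55.2 kb from an end of Tbx5, just outside the window. The nearest region of 6 of 6 libraries lay 231 kb from an end. Tbx20 (chromosome 9, 24720812 to 24774303), a factor of heart muscle and endocardium, and Isl1 (chromosome 13, 116298270 to 116309688), a factor of the second heart field, had 1 region each. The Tbx20 region was called in control replicate 2 with 3 estimated tags, and the Isl1 region in knockdown replicate 3 with 2. Their nearest regions of 6 of 6 libraries lay 169 and 409 kb from the start.

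Hand2 (chromosome 8, 57320983 to 57324517), a factor of the right ventricle and the branchial arches, had 2 regions, each in 1 library, and the closest lay 19.9 kb from its start. Gata5 (chromosome 2, 180325088 to 180335503), a factor of the endocardium, had 7 regions, 6 of them in 1 library. The seventh, 11.7 kb above the gene, was called in control replicates 1 and 3. A single peak stood within 1 kb of the start of Gata5, in knockdown replicate 3, with a fold enrichment of 2.67 and 2 estimated tags. Its fold enrichment was higher than that of 0.1% of the peaks of that library.

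Per 100 kb, the windows ran from 0.0 regions for Tbx5 to 11.3 for Nkx2-5, with a median of 4.34 over the 10 genes and 5.48 over all protein-coding gene windows. Of the 10 genes, 5 lay below the median of all windows. Tbx5, Tbx20, Isl1, Hand2 and Tbx18 had 0.0, 0.651, 0.898, 1.93 and 2.34 regions per 100 kb, and 15.0% to 26.2% of all windows held as few or fewer. Counting only regions of 6 of 6 libraries, 7 of the 10 were below the median of all windows, 1.38 per 100 kb, and Gata6, Hand1 and Nkx2-5 were above it at 2.25, 1.93 and 2.82. Of all windows, 27.9% had no such region, against 6 of the 10 here.

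**Figure D3:**
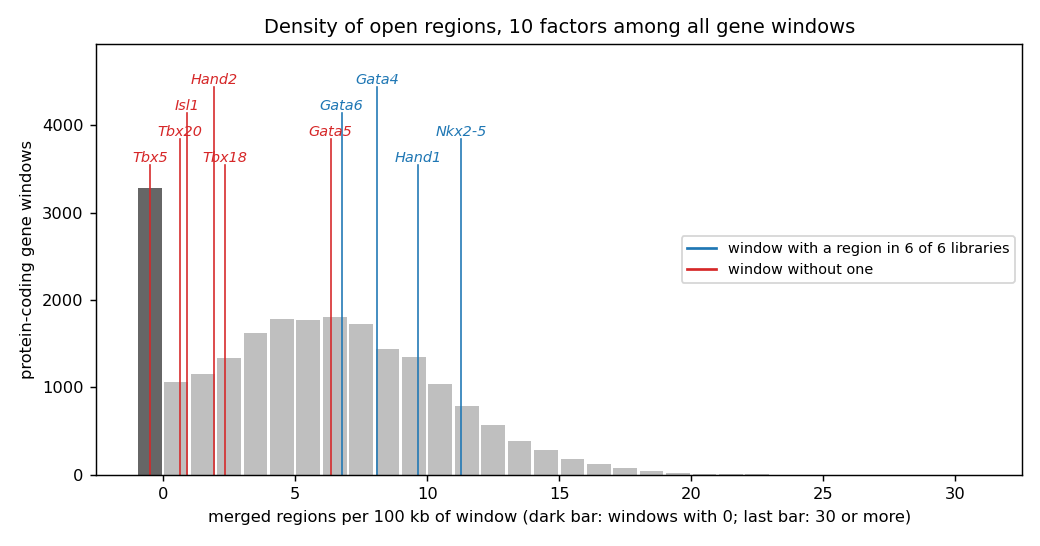
Number of protein-coding gene windows (bars) by merged regions per 100 kb of window, with the 10 factors as vertical lines, blue where the window held a region of 6 of 6 libraries and red where it held none. The red lines of Tbx5, Tbx20, Isl1, Hand2 and Tbx18 stand at 2.34 regions per 100 kb or less.

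Most of these gene starts are rich in CpG, a feature that was not used to choose them. The ratio of observed to expected CpG over the 250 bases before the start was 1.05 for Isl1, 0.99 for Hand2, 0.84 for Tbx18, 0.75 for Tbx20, 0.72 for Gata5 and 0.53 for Nkx2-5. Among 21263 starts of protein-coding genes, those with a ratio of 0.6 or more had a peak within 1 kb in 6 of 6 libraries in 62.0% of cases and in 0 of 6 in 11.8%. Of the 5 factors at or above 0.6, none had a start peak in 6 of 6 libraries, Tbx18 had one in 5, Gata5 in 1, and Hand2, Tbx20 and Isl1 in 0. For the other 4 factors no start is listed, and windows of 1 kb around both gene ends were used. By these, Gata6 was open in 6 of 6 libraries and Gata4, Hand1 and Tbx5 in 0. Over all protein-coding genes, treated in the same way, 37.4% were open in 6 of 6 libraries and 41.2% in 0, against 1 and 7 of the 10 factors.

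**Figure D4:**
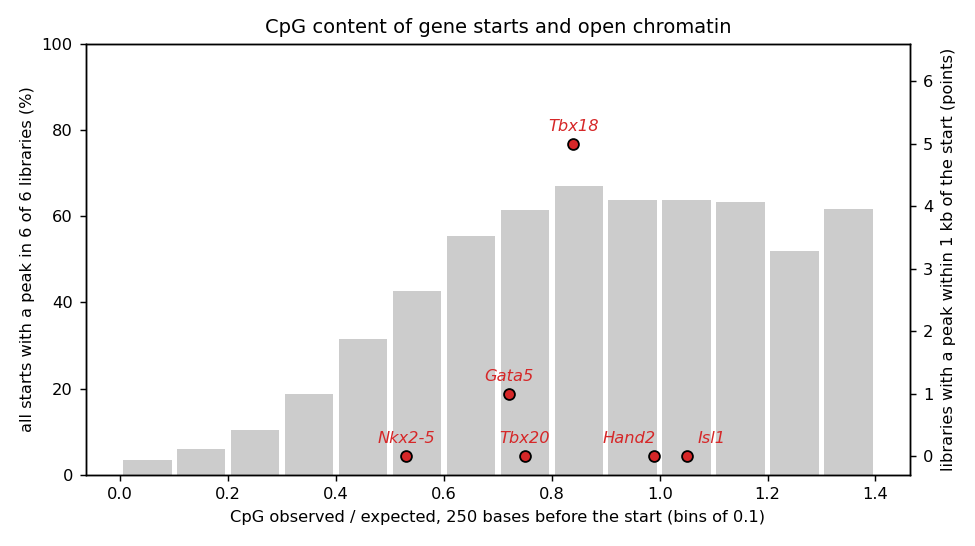
Bars give the share of all listed protein-coding starts with a peak within 1 kb in 6 of 6 libraries, by bins of 0.1 of the CpG ratio, and red points (right axis) give the number of libraries with such a peak for the 6 factors with a listed start. Isl1, Hand2 and Tbx20 lie at 0 libraries, over bins in which more than 60% of starts were open.

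Motif letters in the 250 bases were few. GATAA or its complement occurred 2 times before Hand2 and 1 time before Isl1, and 0 times before Tbx18, Tbx20, Gata5 and Nkx2-5, while 20.5% of all starts held it. The ARID3 letters given above occurred 2 times before Hand2 and 0 times before the other 5, and 18.1% of all starts held either form. In Hand2 a match of each kind overlaps the other. The letters AAGTG, from NKX2 sites, stood once before Tbx18, inside the marked stretch, and once before Hand2, and 39.7% of all starts held them. The T-box letters GGTGTGA stood before none of the 6 and 3.08% of all starts. The TATA box letters TATAAA stood before none of the 6 and 11.6% of all starts. The AP-1 letters TGANTCA stood before none of the 6 and 6.13% of all starts. The E-box letters CANNTG stood before each of the 6 but Tbx20, and 62.8% of all starts held them. All were searched on both strands.

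As called, the numbers of peaks in a window overlapped or shared values between the groups for each of the 10 factors, but scaled to the size of each list those of Gata6 and Nkx2-5 separated. Gata6 had 6, 6 and 3 peaks in the knockdown libraries and 8, 6 and 9 in the control libraries, or 5.00 ± 1.73 against 7.67 ± 1.53 (SD, n = 3 each), a difference of -2.67 (exact two-sided permutation p = 0.3). In control replicates 1 and 3, a peak over the gene end and another inside Gata6 lay in the same merged region. Both were counted, so part of this difference is a split of 1 region into separate peaks. Gata4 had 6, 10 and 6 in the knockdown libraries and 7, 3 and 6 in the control libraries, or 7.33 ± 2.31 against 5.33 ± 2.08 (SD, n = 3 each), a difference of 2.00 (exact permutation p = 0.6). On these unscaled counts the groups shared 6 peaks as a value in both windows, with the fewest peaks in the shallowest library of a group: knockdown replicate 3 at Gata6 and control replicate 2 at Gata4. Nkx2-5 had 7, 8 and 6 peaks in the knockdown libraries and 7, 4 and 7 in the control libraries, and Hand1 3, 3 and 4 against 4, 3 and 4. Gata5 had 0, 0 and 2 peaks in the knockdown libraries and 3, 0 and 3 in the control libraries, and Tbx18 2, 1 and 1 against 2, 1 and 3. Hand2, Tbx20 and Isl1 had at most 1 peak in any library.

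Per 10000 peaks of the library, Gata6 had 1.19, 1.17 and 0.721 peaks in the knockdown libraries and 1.56, 1.80 and 1.73 in the control libraries. Every knockdown library was thus below every control library, with a difference of -0.67 peaks per 10000 (exact permutation p = 0.1, adjusted p = 1). The separate peaks at the gene end in control replicates 1 and 3 are counted here too. Nkx2-5 had 1.38, 1.56 and 1.44 per 10000 in the knockdown libraries and 1.36, 1.20 and 1.34 in the control libraries. Every knockdown library was above every control library by this measure, with a difference of 0.16 (exact permutation p = 0.1, adjusted p = 1). Such full separation occurred upward in 6.05% and downward in 3.12% of all windows tested, and in 1 of the 10 factors each way. The number of peaks in a list also sets this scale, so a window can separate through the length of a list. With lists cut to equal length, Gata6 differed by -1.67 peaks (exact permutation p = 0.3) and Nkx2-5 by 0.0. Beyond this cut, the part of list length was not tested.

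Of 18602 gene windows with a peak, 0 (0.0%) had an adjusted p under 0.05 by the exact permutation test, and 0 had an unadjusted p under 0.05. With 3 libraries against 3 the smallest p is 0.1, so no window could pass, and these p-values do not show that the groups are alike. On unscaled counts the smallest p among the 10 factors was 0.3, and each adjusted p was 1. Without control replicate 2, Gata6 differed by -3.5 peaks at the smallest p of 0.1. More peaks, unscaled, in every knockdown library than in any control library occurred in 1.57% of windows, and fewer in 0.597%. For the 10 factors both unscaled counts were 0. On average 3 factors had more peaks in the knockdown libraries, 5 had fewer and 2 had the same, among them Tbx5, which held no peak. The median difference over the 10 factors, with Tbx5 counted as 0, was -0.17 peaks. Over all windows tested, which leave out those without a peak, it was 0.33.

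**Figure D5:**
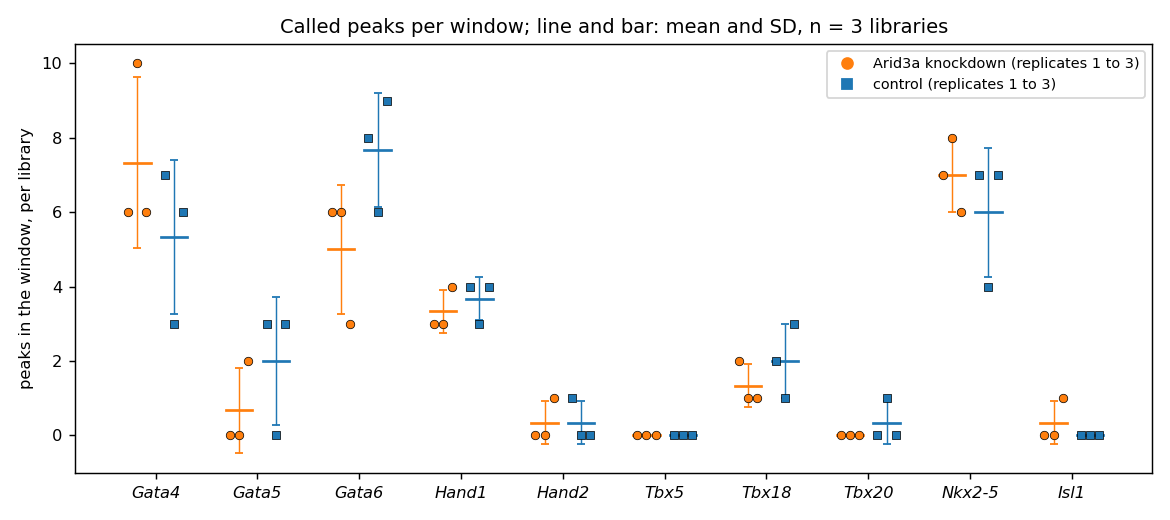
Peaks called in each window, 1 point per library, with knockdown libraries (orange circles) left of control libraries (blue squares) for each factor. Lines and bars give the mean and SD over 3 libraries, and the 2 groups share values or overlap at every factor, with 0 peaks in all libraries at Tbx5.

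One region of the 59 was present in 3 of 3 knockdown and 0 of 3 control libraries, and none in the opposite pattern. Over all 85174 regions these patterns took 0.432% and 0.277%. The region lay in the window of Nkx2-5 at 26794736 to 26795204 on chromosome 17, between genes, 43.5 kb below Nkx2-5. Its fold enrichment was 5.02, 4.65 and 6.66 in the knockdown libraries, with 6, 6 and 9 estimated tags. These are weak peaks, with a smallest -log10 q of 3.55, and the pattern was lost with a -log10 q of 5 or more and with lists cut to equal length. A single region cannot reach an exact p below 0.1, so it is given as a description.

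Absences of regions were most frequent in the shallowest libraries, knockdown replicate 3 and control replicate 2. All 21 regions present in 2 to 5 libraries were missing from knockdown replicate 3, control replicate 2 or both. The same count over all merged regions was not made, so the 21 are not read as a trait of these windows. Some regions of 1 library were called in a shallow library alone, such as the Isl1 region and the Gata5 start peak in knockdown replicate 3. Of the 4 regions in 5 libraries, 3 were missing from knockdown replicate 3 and 1 from control replicate 2. The share of the 59 regions found in a library was 42.4%, 47.5% and 40.7% in the knockdown libraries and 52.5%, 30.5% and 54.2% in the control libraries. Over all merged regions it was 58.1%, 59.1% and 48.2% in the knockdown libraries and 59.2%, 38.6% and 60.3% in the control libraries. Knockdown replicate 1, though deeper, had 24 peaks in the 10 windows, as many as knockdown replicate 3. Peaks in regions of 6 of 6 libraries had a median of 19.5 estimated tags, and those in regions of 1 library 3, against 16 and 4 over all merged regions. The part of depth in these absences was not tested.

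Other genes of heart and outflow development, 20 in a list chosen with earlier results of these data known, varied as well. A start peak in 6 of 6 libraries was found for 4 of them, among them Zfpm1 and Zfpm2, which encode cofactors of GATA proteins, and the homeobox gene Meis1. The windows of Meis1, Zfpm1 and Foxc2 held 6, 5 and 5 regions of 6 of 6 libraries. In 8 of the 20, among them Tbx1, Wt1 and Msx1, the start had a peak in 0 of 6 libraries. No region of 6 of 6 libraries stood in 9 of the 20 windows, and 0 regions of any kind in those of Irx4 and Msx1. The median window held 1 such region, against 0 for the 10 factors and 2 for all protein-coding genes. Between the groups, 0 of 18 of these windows with peaks had an adjusted p under 0.05, with a smallest exact permutation p of 0.3. As this test cannot go below 0.1 with 3 libraries against 3, none could pass.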

How the data were processed

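Per the submitters' processing notes, Bowtie2, Picard and MACS2 were used on mm10, with versions, settings and any Tn5 offset of the reads not given in the sources used here. The authors deposited 1 peak list per library, so replicates were called separately. Each deposited peak has a fold enrichment, a ratio at its summit over the local background of its own library. It also has a deposited −log10 p and −log10 q, and a deposited score, the −log10 q times 10. The smallest −log10 q was 1.30 to 1.32. Fold enrichments are the authors' own values and served only to describe and rank peaks within a list. The deposited summit offset gave summit positions.

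Tags at the summit were estimated from the deposited fold and −log10 p, taking the Poisson model that MACS2 uses. Whole tag numbers up to 600 were tried, and in every library no fewer than 99.996% of peaks had one whose −log10 p differed from the deposited value by 0.001 or less. The estimates describe depth and entered no test.

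Gene positions and promoter sequences came from RefSeq tables of GRCm38.p6. A start window was 1000 bases on each side of a listed start, which 17492 protein-coding genes have, and of both gene ends for the rest. Exons and introns were not told apart. For every protein-coding gene window, peaks per library were compared by an exact two-sided permutation test over the 20 relabellings, with Benjamini-Hochberg adjustment over all windows with a peak, in Python 3.11.15 with NumPy 2.4.6, pandas 2.3.3 and SciPy 1.17.1. The steps were tested on simulated data. The factors, gene lists and tests were chosen with earlier results of these data known. The text names every region of 6 of 6 libraries, of 1 group only or in a start window; other regions were named after their values were seen. Alternatives, given in the closing section, were other window widths, a stricter −log10 q, lists of equal length, peaks per 10000 peaks of the library, wider overlap, other start windows and leaving out each library.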

Additional observations from a re-analysis of the deposited data

How the results depend on the processing

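The 10 regions of 6 of 6 libraries and the 59 regions in all depend on the width of the window: 1 and 12 with no flank, 2 and 22 with 10 kb, and 27 and 95 with 100 kb. There were 32 regions in all with a −log10 q of 5 or more and 33 with lists of equal length. Where peaks had to cover 50% of the merged region, 3 regions of 6 of 6 libraries remained, fewer by construction since merged regions are wider than single peaks. The 1 region specific to the knockdown became 0 with no flank, with 10 kb, with a −log10 q of 5 or more and with lists of equal length. Leaving out each library in turn gave 10 to 13 regions shared by the rest, 1 to 3 specific to the knockdown and 0 to 1 specific to the control. The value of 3 came without knockdown replicate 1, and that of 1 control-specific region without control replicate 1 (in Gata6os) and without control replicate 2 (above Gata5). Fewer libraries then have to agree. In the 4 deepest libraries, chosen after seeing the data, 17 regions were shared by all and 1 was specific to each group. A start or end window open in every library was found for 1 factor (Gata6), for 0 with 500 bases and for 2 with 5000 bases, without knockdown replicate 3 (range without each library 1 to 2) and in the 4 deepest libraries, Tbx18 being added.

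No window of any gene passed under any setting, with 0 calls each time. The replicate block, a sign-flip test of the 3 same-numbered differences, also gave 0 calls. Its smallest p is 0.25. Same-numbered libraries deviated from their group means with correlations of 0.029, -0.081 and -0.083, so the numbers are not taken to pair the libraries. Of 101 differences of single factors under other settings, 1 had the opposite sign: Hand1, at 0.67 peaks with a −log10 q of 5 or more. Its cause was not tested. Some could not reverse: those of Hand2, whose main difference was 0.0, and those of the replicate block, equal to the main ones by construction. Others fell to 0.0: Nkx2-5 and Tbx18 with lists of equal length, and Nkx2-5 without control replicate 2. Gata5 did so with flanks of 0 and 10 kb. The smallest exact p of a factor was 0.1, for Gata6 (-0.67) and Nkx2-5 (0.16) per 10000 peaks of the library and for Gata6 without control replicate 2 (-3.5), against 0.3 on the unscaled counts of all libraries. With 8 to 11 tags in a median peak, single absences of weak regions are not shown to be real.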
